A study of Yucca flaccida with 12 samples.

Results

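The leaf margin of variegated Yucca flaccida 'Golden Sword' (VE, 3 libraries) was compared with the margin of unvariegated plants of the same cultivar (UE, 3 libraries). These are 6 of the 12 messenger RNA libraries in the series, chosen by their titles alone. The other 6 come from leaf centres (VC and UC, 3 libraries each) and share the cultivar, the leaf stage and the culture with the edges, and each centre group shares the phenotype of its edge group. All plants were kept in vitro without treatment, and each sample was labelled as the second youngest leaf. Whether replicate libraries stem from different plants, or edge and centre libraries from the same leaves, is not stated. The p-values therefore cover the variation among these libraries, part or all of which may be technical. No allele or line other than the cultivar is given for any group.

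Variegation is the presence of differently coloured sectors in a leaf, most often because some cells hold plastids that make little chlorophyll. In many ornamental monocots it is kept by a chimeric shoot tip, whose cell layers differ in their plastids or nuclei and give rise to different zones of the blade. Plants that lose the pattern can then appear among vegetatively multiplied offspring. 'Golden Sword' is grown for leaves with a yellow centre and a green margin, although the labels do not state the colour of either zone here. Comparing the same zone in both kinds of plant asks which transcripts differ with the phenotype while the position in the leaf is held constant.

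The deposited tables list 185746 genes under cluster identifiers, read here as clusters of assembled transcripts, and do not pair them with gene names. No function, pathway or cell type is therefore given for any of them, and the leaf zone could not be checked against marker genes. Genes are described by level, direction and behaviour over the libraries. At most 2 identifiers are printed in each direction. Total estimated counts were 17126820 to 17914144 in VE and 15488148 to 18161194 in UE. The filter on low counts left 59225 genes for testing, with 98.9% of all counts.

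The edge libraries grouped by phenotype. Levels are given in CPM, the count scaled to library size with a TMM factor. Across the 41654 genes that averaged 1 CPM or more over the 6 edge libraries, the Pearson correlation of log2 CPM was 0.893 to 0.914 among VE libraries and 0.89 to 0.929 among UE libraries. It was 0.778 to 0.866 between VE and UE libraries. These correlations are across genes and describe the libraries, which differ in depth. VE1 was the farthest from the unvariegated edge, at 0.778 to 0.805, against 0.845 to 0.852 for VE2 and 0.855 to 0.866 for VE3.

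The most abundant genes held a larger share of the counts in each library of the variegated edge than in any of the unvariegated edge. The 100 most abundant genes of each library held 32.35%, 32.23% and 30.82% of the counts in VE1, VE2 and VE3, and 27.51%, 27.27% and 24.83% in UE1, UE2 and UE3. The groups did not overlap, with means of 31.8% ± 0.851 and 26.5% ± 1.48 (SD, n = 3 each). The single most abundant gene of each library held 4.24% ± 0.594 in VE and 2.27% ± 0.225 in UE (SD, n = 3). The difference for the 100 genes was 5.26 percentage points, with a two-sided exact permutation p of 0.1, which is the lower limit for 3 libraries against 3, and an adjusted p of 0.4 over 4 library measures. In the centres the 100-gene share was 23.3% ± 1.85 in VC and 24.7% ± 1.23 in UC (SD, n = 3). Total counts, the number of genes detected and the share of counts outside the largest identifier group gave exact permutation p of 0.5, 0.7 and 0.4.

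In edgeR's quasi-likelihood test, 1970 genes were higher and 1150 lower at the variegated edge at a Benjamini-Hochberg adjusted p below 0.05. This is 3.33% and 1.94% of the genes tested, 5.27% together. The changes were often large. The log2 difference was between 1 and 2 for 983 of the higher and 454 of the lower genes, between 2 and 3 for 321 and 209, and at least 3 for 307 and 186. It was under 1 for 359 and 301. The 3 libraries of VE lay above all 3 of UE for 1968 of the 1970 higher genes and below them for all 1150 lower genes, which the test favours. Over all genes tested, 14.1% had VE wholly above UE and 12.5% wholly below. In bulk leaf tissue, fewer cells of a type and less RNA per cell cannot be told apart.

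These counts depended on single libraries. The number of higher genes was 631 without VE1, 745 without VE2, 670 without UE1, 1231 without UE2, 525 without UE3 and 1312 without VC2, which entered the fit through the shared estimate of the spread. The number of lower genes was 317 without VE1, 320 without VE2, 391 without UE1, 345 without UE3 and 732 without VC2. When VE1 and UE1 were dropped together, a setting added after the data were seen that leaves 2 libraries per edge, 82 genes were higher and 38 lower. The balance of directions depended on scaling: 63.1% of the called genes were higher with TMM factors, but 33% when only library totals were used, with a median shift of -0.28 over all genes on the log2 scale. With limma on the deposited FPKM values plus 1, which also changed the test and the genes tested, it was 43.1%, at a median shift of -0.24.

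Abundant genes were called higher far more often than rare ones. Of the 92 genes that averaged 1000 CPM or more over the edge libraries, 29 were higher and 4 lower in VE, with a class median log2 difference of 0.58. Of the 1322 genes between 100 and 1000 CPM, 254 were higher and 58 lower, with a median of 0.16. Between 10 and 100 CPM there were 923 higher and 484 lower among 12516 genes, and between 1 and 10 CPM 703 and 518 among 27724. Under 1 CPM the order turned, with 61 higher and 86 lower among 17571 genes and a median of -0.17. More counts also make a given fold easier to detect, so the share called in either direction is not comparable between levels. The excess of higher calls among abundant genes was smaller with library totals, at 23 higher and 10 lower of the 92, and was gone between 100 and 1000 CPM, at 189 and 189. Single libraries mattered here too. Without UE3, 4 of the 92 were higher and 3 lower, and without VE1 8 and 2. Without VE2 they were 9 and 2, without VE3 21 and 3, without UE1 13 and 2, and without UE2 12 and 2. Without VE1 and UE1 together, 0 were higher and 1 lower. Of the 1322 genes between 100 and 1000 CPM, 64 were higher and 31 lower without UE3, 83 and 21 without VE1, 87 and 18 without VE2, and 107 and 24 without UE1. They were 210 and 38 without VE3 and 151 and 46 without UE2. Without VC1, VC2 or VC3 they were 319 and 75, 177 and 38, or 321 and 68. Without VE1 and UE1 together they were 11 and 2.

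**Figure D1:**
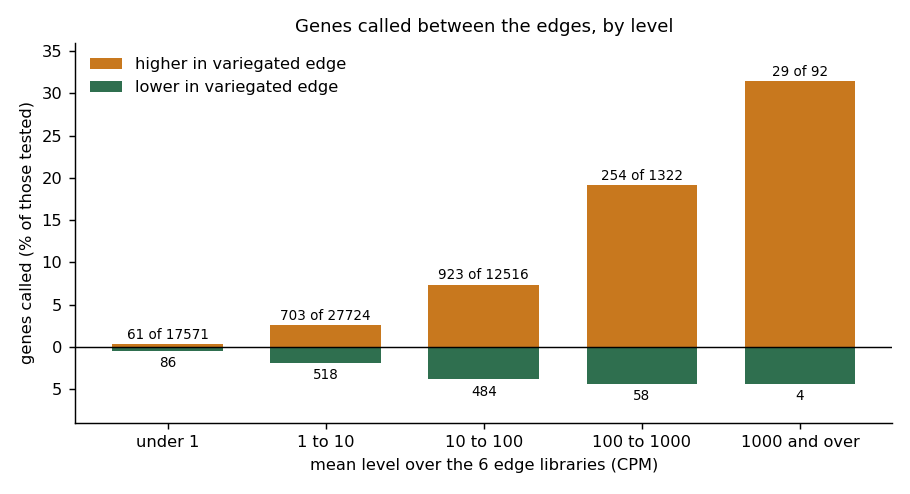
Genes called between the variegated and the unvariegated edge, as a percentage of the genes tested (y axis) in 5 classes of mean CPM over the 6 edge libraries (x axis). Orange bars rise above 0 for genes higher in VE and green bars fall below 0 for genes lower in VE, with the counts printed. The higher share reached 31.5% at 1000 CPM and over, against 4.35% lower; with library totals in place of TMM factors the counts there were 23 and 10.

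The called genes made up a large part of the RNA at the variegated edge. The 1970 higher genes held 30.16%, 27.63% and 24.5% of the counts in VE1, VE2 and VE3, and 14.12%, 12.48% and 11.55% in UE1, UE2 and UE3. The 1150 lower genes held 1.69% ± 0.267 in VE and 5.18% ± 0.145 in UE (SD, n = 3). These shares follow from the choice of the genes and are a description of how much RNA they account for. In the centres, whose levels are not part of the contrast although they entered the estimate of the spread, the higher genes held 22.97%, 18.68% and 14.7% in VC1, VC2 and VC3 and 12.6% ± 0.658 in UC (SD, n = 3). VC3 was thus close to the highest UC library, which stood at 13.19%.

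The libraries of the variegated edge did not carry the differences equally. VE1 was the highest VE library for 1348 of the 1970 higher genes, or 68.4%, against 36.6% of all genes tested. VE3 was the highest for 8.27% and the lowest for 67.2%. Among the lower genes VE1 was the lowest VE library for 56.4% and VE3 the highest for 52.5%. VE1 therefore lay at the far end and VE3 at the near end of the phenotype difference in either direction. In these shares no UE library stood out to the same degree: UE1, UE2 and UE3 were the lowest of their group for 30.4%, 27.9% and 41.8% of the higher genes. For the lower genes UE2 was the lowest UE library in 47.7% and UE3 the highest in 43.1%. Over all genes tested, each edge library was the highest or the lowest of its group for 29.5% to 37.3%.

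A core of 609 genes was called in the same direction with all libraries and in each of the 6 fits that left out 1 edge library. It held 407 higher and 202 lower genes, so 20.7% of the higher and 17.6% of the lower genes called with all libraries. Core genes occurred at all levels, but made up a larger share of the abundant genes than of the rare ones. At 1000 CPM and over 4 higher and 2 lower of 92 genes were in the core. Between 100 and 1000 CPM it held 61 and 17 of 1322, and between 10 and 100 CPM 235 and 108 of 12516. Another 99 and 70 of 27724 lay between 1 and 10 CPM, and 8 and 5 of 17571 below. The median log2 difference was 1.89 for the higher and -1.64 for the lower core genes. A log2 difference of 3 or more was found for 83 of the higher and 31 of the lower ones.

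Most core genes kept their calls with other scaling, which could hardly have turned their direction. Their smallest log2 differences were 0.703 for the higher and -0.678 for the lower genes. The median shift with library totals was -0.28. The core was chosen with TMM factors and none was built with other scaling. Whether its balance of 407 to 202 depends on scaling was therefore not tested. With library totals only, 405 of the 407 higher and 202 of the 202 lower core genes were called in the same direction, and with limma on FPKM plus 1 the numbers were 375 and 198. When VE1 and UE1 were dropped together, 69 and 24 were still called. When the filter on low counts was applied anew in each fit without a library, which was the first form tried, the core held 537 genes, all of them among the 609.

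Over the core, the variegated and unvariegated libraries stood well apart in both zones, which at the edge follows from the choice of the genes. The median level of the 407 higher genes was 40.7, 36 and 30.7 CPM in VE1, VE2 and VE3 and 35.8 ± 5.02 CPM in the group, against 8.93 ± 0.368 CPM in UE (SD, n = 3). In the centres it was 31.5, 29 and 21.3 CPM in VC1, VC2 and VC3, and 10.2 ± 0.371 CPM in UC (SD, n = 3). The median of the 202 lower genes was 6.58 ± 0.575 CPM in VE and 21.1 ± 0.987 CPM in UE, while UC stood at 19.5 ± 0.88 CPM and VC at 8.5 ± 1.91 CPM (SD, n = 3). VC was thus on the side of VE, and VC3 was the VC library nearest to the unvariegated level in both sets. The centre levels are not part of the contrast that chose the genes, but all 12 libraries shared the estimate of the spread. With only the 6 edge libraries in the fit, 404 of the 407 higher and 198 of the 202 lower core genes were called.

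**Figure D2:**
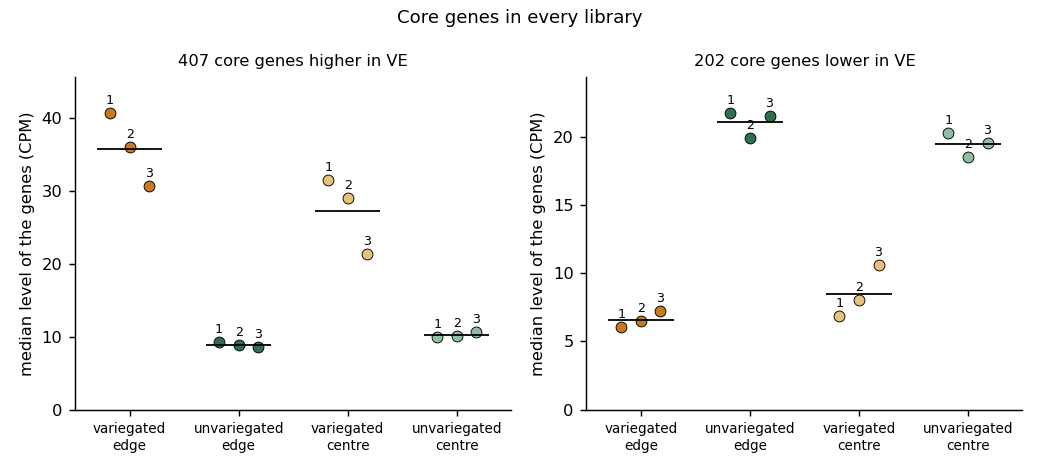
Median CPM (y axis) of the 407 core genes higher in VE (left) and the 202 lower in VE (right) in every library (points, numbered by replicate), with the group mean as a line, for the 4 groups on the x axis. The VE and UE values follow from how the genes were chosen; the VC libraries, at 21.3 to 31.5 CPM on the left, lay above the UC libraries, at 9.98 to 10.7 CPM.

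Of the core genes that averaged 10 CPM or more over the edge libraries, with at least 1 CPM in the lower group and groups that did not overlap, 297 were higher and 126 lower, and the 2 with the widest differences in each direction are named here. Cluster-20123.52092, with an effective length of 837 bases, rose to 468, 174 and 180 CPM in VE1, VE2 and VE3 from 6.08, 5.51 and 14.2 CPM in UE1, UE2 and UE3. The groups did not overlap, and VE1 was the high library. Its log2 difference was 4.98 (SE 0.836, adjusted p = 0.0105, edgeR). On the length-corrected scale it stood at 268 ± 153 FPKM in VE and 10.6 ± 6.65 FPKM in UE (SD, n = 3), rank 650 of all genes in VE and 16517 in UE. In the centre it had 448, 287 and 36.8 CPM in the variegated and 6.32, 7.89 and 5.78 CPM in the unvariegated libraries, with VC3 far below the other VC libraries. Of 2 tested genes with adjacent identifiers 1 was also called higher, and reads shared between such clusters were not examined.

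Cluster-20123.59183, of 607 bases effective length, was the most even of the named genes. It had 78.7, 42.9 and 40 CPM in the VE libraries and 2.26, 1.86 and 1.84 CPM in the UE libraries. The lowest VE library was far above the highest UE library, and the log2 difference was 4.76 (SE 0.319, adjusted p = 0.000248, edgeR). Its centre levels were higher than its edge levels in both phenotypes, with UC at 5.06 ± 1.68 CPM and VC at 121 ± 9.45 CPM (SD, n = 3). The phenotype difference of 4.59 in the centre (SE 0.306, adjusted p = 5.74e-05, edgeR) was close to that at the edge, and the difference between the zones was 0.17 (SE 0.395, adjusted p = 0.958).

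Cluster-20123.20800 moved from rank 143 by FPKM among all genes in UE to rank 11900 in VE. It had 377, 231 and 71.3 CPM in UE1, UE2 and UE3 and 1.96, 1.83 and 6.63 CPM in VE1, VE2 and VE3. The UE libraries differed among themselves by a wide margin, but none came near a VE library. The log2 difference was -6.02 (SE 0.851, adjusted p = 0.00562, edgeR). It was short, with an effective length of 213 bases, and its FPKM was 1050 ± 688 in UE and 13.9 ± 11.6 in VE (SD, n = 3). The centre showed the same contrast, with VC at 1.29 ± 1.18 CPM and UC at 172 ± 84.2 CPM (SD, n = 3).

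Cluster-20123.89168 fell to 0.0701, 1.55 and 1.88 CPM in VE1, VE2 and VE3 from 44.7, 25.3 and 8.38 CPM in UE1, UE2 and UE3. UE3 was the low library of its group and VE1 nearly lacked the gene, with 1.42 estimated counts. The log2 difference was -4.47 (SE 0.796, adjusted p = 0.0131, edgeR). Its level in the unvariegated centre was lower and more even, at 7.61 ± 1.22 CPM, and in VC it was 0.15 ± 0.136 CPM (SD, n = 3). Without VE1 and UE1 the adjusted p in edgeR was 0.0745 for this gene, 0.0733 for Cluster-20123.20800 and 0.115 for Cluster-20123.52092, and that of Cluster-20123.89168 was 0.0689 with no filter on low counts. The call of Cluster-20123.59183 held in all 23 alternatives, with adjusted p up to 0.00429. These include the 6 fits without 1 edge library that chose the core, in which every named gene was called by rule. The value of 0.00429 came from 1 of them, without UE1. In the other alternatives the adjusted p of Cluster-20123.59183 was at most 0.00284, in edgeR with only the 6 edge libraries. With the filter applied anew in each fit without a library, the rule would have named only 2 of these 4 genes. Cluster-20123.52092 and Cluster-20123.89168 then left the core. With the tested genes kept, each had an adjusted p of 0.0492 without UE1 in edgeR, close to the threshold.

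**Figure D3:**
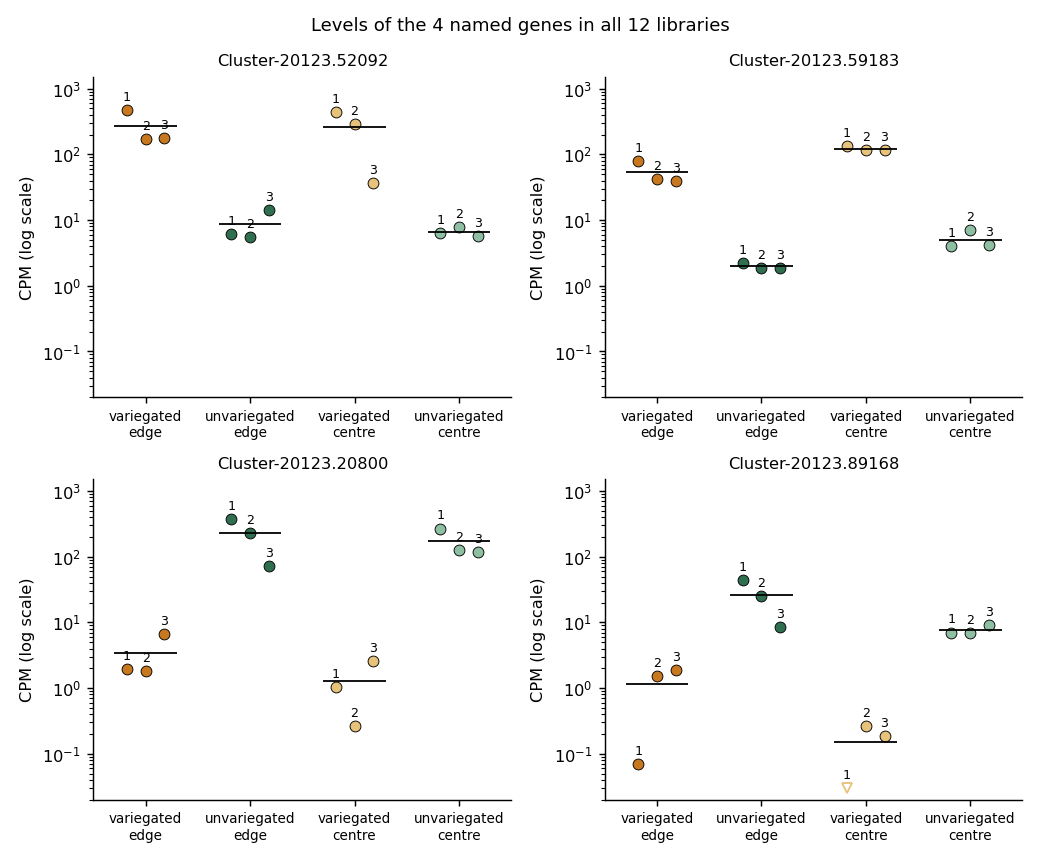
CPM on a log scale (y axis) of the 4 named genes in all 12 libraries (points, numbered by replicate) in the 4 groups, with group means as lines; the open triangle marks a library with 0 counts. The upper genes stood between 40 and 468 CPM in VE and at most at 14.2 CPM in UE, and the lower genes showed the opposite order.

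In the leaf centre, most core edge genes differed in the same direction. The centre comparison uses none of the 6 edge libraries, although both come from a single fit with 1 estimate of the spread. Whether both zones were taken from the same leaves or plants is not stated, so the centre may not be an independent set. Of the 407 higher core genes, 395 had a higher value in VC than in UC, against 47.8% of all genes tested. In the centre 263 of the 407 were called higher, against 2.67% of all genes tested. A single higher core gene was called lower in the centre. Of the 202 lower core genes, 191 were lower in VC and 146 were called lower, against 2.43% of all genes, and 1 was called higher. Together 96.2% of the core kept its sign. For genes called at the edge but outside the core, the share with the same sign was 90.1% for 1563 higher and 88.6% for 948 lower genes, and 24.4% and 31.5% were called in the same direction in the centre.

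The values of the core genes were wider at the edge, where the genes had been chosen, than in the centre. The median log2 difference of the higher core genes was 1.89 at the edge and 1.24 in the centre, and that of the lower core genes -1.64 and -1.3. The edge value was the larger in size for 355 of 407 and 153 of 202 genes. Choosing genes by their edge values raises those values, so these medians do not compare the zones. The phenotype difference of 9 of the 609 core genes was called as different between edge and centre, 6 of them higher at the edge and 3 lower, where 0.0962% of all genes passed that test. The edge difference that chose the core is part of this contrast too, so nothing is read from the number.

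**Figure D4:**
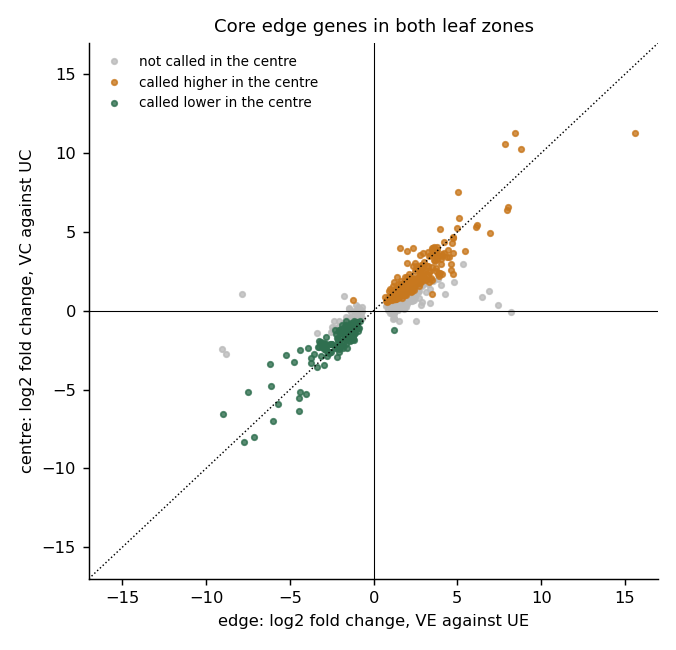
Log2 fold change of the 609 core genes at the edge (VE against UE, x axis) and in the centre (VC against UC, y axis); orange and green points were called higher or lower in the centre and grey points were not called. The dotted line marks equal values, and 586 points lie in the quadrants of equal sign; the widest value, 15.6, belongs to a gene with almost no counts in UE and depends on the fit's prior.

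Some genes were seen at one edge and hardly at the other. By a rule set after the values were seen, 175 genes had at most 3 counts over all UE libraries and at least 10 in each VE library, and 80 had the reverse. Of the 175, 80 were called higher, against 3.33% of all genes tested, and 9 belonged to the core. Of the 80 genes nearly lacking in VE, 36 were called lower, against 1.94% of all genes tested, and 6 were core genes. The rule used the same edge counts as the test, so nothing is read from these shares. Without these genes, 1890 higher and 1114 lower calls remained, so they were a small part of the difference between the edges.

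The 175 genes were carried by VE1. Their summed counts were 0.685% of the library in VE1, 0.048% in VE2 and 0.0864% in VE3, and VE1 was the highest library for 150 of them. In the centre their share was 0.0291%, 0.0511% and 0.0866% in VC1, VC2 and VC3. It was 0.00358% or less in each UC library, where 142 of the 175 also had at most 3 counts over the group. Of these genes, 92 had identifiers outside the largest identifier group, which holds 50880 of the 59225 genes tested. Their highest member reached 3600 CPM in VE1, 151 CPM in VE2 and 360 CPM in VE3.

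The 80 genes nearly lacking in VE were more even over their libraries. Their share was 0.0151%, 0.0124% and 0.0202% in UE1, UE2 and UE3, with no single library carrying them. Their median level was 1.35, 1.13 and 1.48 CPM in UE1, UE2 and UE3, while that of the 175 genes was 11.8 CPM in VE1, 1.69 CPM in VE2 and 2.14 CPM in VE3. In the variegated centre 13 of the 80 had at most 3 counts over the VC libraries, and their share was 0.00359% to 0.00858%, against 0.0112% to 0.0143% in UC. The rule chose them for their low VE counts, so these values do not compare edge and centre. Of the 80 genes, 21 had identifiers outside the largest identifier group, against 92 of the 175.

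**Figure D5:**
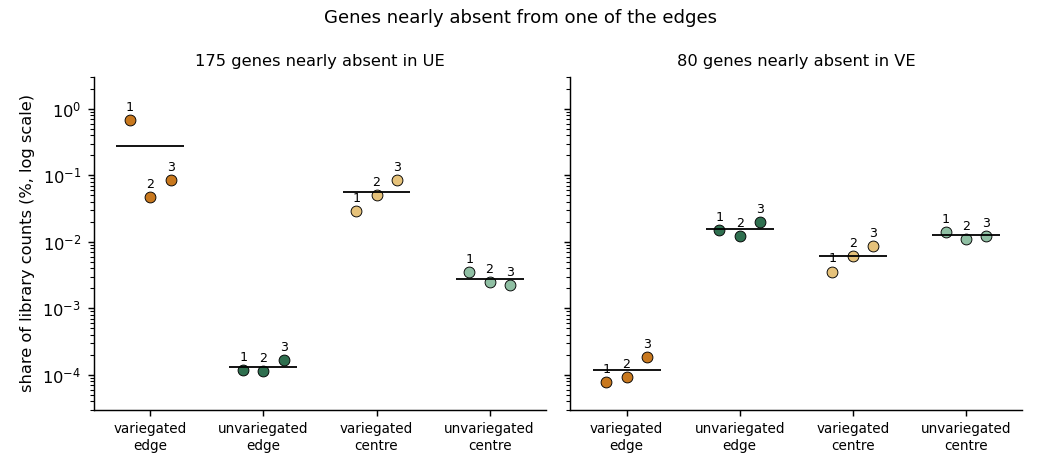
Share of each library's counts (%, log scale, y axis) in the 175 genes nearly absent in UE (left) and the 80 nearly absent in VE (right), for the 4 groups on the x axis, with libraries as numbered points and group means as lines. The levels in VE and UE follow from the rule; VE1, at 0.685%, stood above VE2 and VE3, at 0.048% and 0.0864%.

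Genes with neighbouring identifiers tended to be called together. In the largest identifier group, 28603 pairs of tested genes had consecutive numbers. When the first was called higher, the second was called higher in 19.4% of pairs, against 4.17% over all pairs. When the first was called lower, the second was called lower in 12.8%, against 2.1%. At a distance of 10 numbers the shares were 7.77% and 3.65%, and at 1000 numbers 6.02% and 2.33%. Only 34 consecutive pairs were called in opposite directions, against 234 that were both higher and 75 that were both lower. Consecutive clusters may share sequence and reads, which was not tested.

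Outside the largest identifier group fewer genes were called, and with no excess of higher ones. There were 142 higher and 144 lower among 8345, or 1.7% and 1.73%, against 3.59% and 1.98% inside it. The largest group held 97.8% of the counts, so genes outside it were rarer on average. Rare genes were also called less often and with less excess of higher ones. Genes inside and outside the group were not compared at matched levels. Calls by gene length were as follows. Among the 6478 genes with an effective length of at least 2000 bases, 160 were higher and 194 lower, with a median log2 difference of -0.2; without VE1 the counts were 53 and 50. Between 500 and 1000 bases 591 of 14426 were higher and 260 lower, and the median was 0.04. Without VE1 192 and 78 were called in this class, and the medians of both classes were -0.18 and 0.02. With all libraries, 302 of 9066 genes under 300 bases were higher and 128 lower. From 300 to 500 bases 247 and 123 of 6941 were called, and from 1000 to 2000 bases 659 and 425 of 15636. The medians of these other classes were -0.0008, 0.002 and -0.02, so the medians did not fall steadily with length.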

How the data were processed

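Polyadenylated RNA was sequenced from the 12 libraries, per the labels' protocols, with no strand-marking step described. The authors deposited expected counts and FPKM values per gene; the submitters' processing notes name Bowtie2, RSEM and CASAVA 1.8. The assembler, the reference and the versions of RSEM and Bowtie2 are not given in the sources used here. RSEM divides reads that match several transcripts, so similar clusters are uncertain as separate units; 21.3% of the deposited expected counts were not whole. The deposited FPKM values correct for length and for library size. Effective lengths were derived from the ratio of both deposited values (FPKM of at least 1 and 10 counts) and were lacking for 6678 genes.

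Groups were taken from sample titles. Expected counts were rounded and filtered with filterByExpr (minimum count 10, minimum total 15). All 12 libraries were fitted with edgeR 4.0.16 (R 4.3.3): TMM scaling, robust glmQLFit, glmQLFTest, Benjamini-Hochberg adjusted p below 0.05. Fits without a library kept the same genes. Standard errors were derived from the log2 fold change and the F statistic. Log2 CPM used a prior count of 2. Alternatives included DESeq2 1.42.0 and limma 3.58.1 on log2(FPKM + 1) and log2(FPKM + 0.1), with FPKM of at least 0.5 in 3 libraries or no filter. Measures per library were tested by exact permutation, two-sided.

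The named genes are the 2 highest and 2 lowest log2 fold changes among core genes that averaged 10 CPM or more over the edge libraries, with at least 1 CPM in the lower group and no overlap of groups. The comparison and the rules were chosen with earlier results of these data known. The fit was also run on counts simulated from its own estimates, which cannot test its assumptions. Replicates differed by a chi-square per degree of freedom of 9.19 to 22.3, so none were taken as the same library. Figures were drawn with Python 3.11.15 and matplotlib 3.10.9.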

Additional observations from a re-analysis of the deposited data

Results flagged for a closer look

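The phenotype difference at the edge departed from that in the centre for 57 genes, flagged because the difference between the zones was itself tested in edgeR (adjusted p below 0.05). The edge difference was the more positive for 36 of them and the more negative for 21. Before adjustment, 5274 genes (8.91%) had a p below 0.05. Of the 57, 17 were called higher and 8 lower at the edge, and 32 were not called there. Of the 17, 10 were called lower in the centre, and of the 8, 5 were called higher there, so these 15 genes had opposite phenotype differences in the zones. A further 21 were called lower in the centre alone and 11 higher in the centre alone. Leaving out an edge library gave 18 (UE1), 72 (UE2), 12 (UE3), 15 (VE1), 9 (VE2) and 24 (VE3). Leaving out a centre library gave 13 (UC1), 10 (UC2), 35 (UC3), 48 (VC1), 15 (VC2) and 35 (VC3). The number was 5 without VE1 and UE1 together and 826 with DESeq2.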

How the results depend on the processing

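Leaving out each library in turn gave 525 to 2444 higher and 317 to 1496 lower genes, and 9 to 72 genes that differed between the zones. Without an edge library the 100 most abundant genes gave 4.41 to 5.75 percentage points. Without a centre library 94.4% to 96.9% of the core had the same sign in the centre. Fits without an edge library could hardly move this share, as the core was held fixed, and it stayed at 96.2%. DESeq2 gave 3564 higher, 2454 lower and 826 zone-dependent genes. Library totals gave 2847 lower genes. FPKM plus 1 gave 1071 higher genes, FPKM plus 0.1 gave 1139, and FPKM plus 1 with no filter gave 601 higher, 608 lower and 33 zone-dependent genes. With no low-count filter 319 genes were zone-dependent. Without VE1 and UE1 together, a setting added after the data were seen, the counts were 82, 38 and 5, from fewer libraries. Over all edge calls, core or not, the sign was shared with the centre for 90.8%. The causes of these shifts were not tested.

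Counts of the other alternatives stayed within 1.5 times. None of the 4 named genes changed direction in any of the 23 alternatives. Replicate numbers showed little pairing of VE with UE libraries: deviations from the group means correlated at -0.049, -0.071 and 0.023 between libraries of the same number. VE1 and VE2 correlated best with a UE library of another number, and VE3 with UE3. Such correlations between edge and centre libraries were not computed. With the replicate block, 2087 genes were higher, 1214 lower and 41 zone-dependent, and no named gene lost its call. Of the genes under 1 CPM, 0.347% were called higher and 0.489% lower; the part of depth in these low shares was not tested.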
